A study of Mus musculus with 14 samples.

Results

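The 6 genes followed here encode receptors, and 1 ligand, that restrain T cells and lie outside the best-known checkpoint group. They were measured across 14 libraries of mouse CD8+ T cells: Btla, Cd160, Cd200, Cd200r1, Cd5 and Lair1. They were taken by symbol from a table of 10106 genes, each occurs there once, and all 6 were among the 9793 genes tested. The cells were OT-I cells, CD8+ T cells from OTI spleens whose transgenic T cell receptor recognises SIINFEKL, a peptide of ovalbumin. They were labelled with the division dye CFSE and given by vein on day 0 to CD45.2+ C57BL/6 recipients, and the mice were 8-12 weeks old. An intravenous dose of 223 pmol of antigen followed on day 1, equivalent to 10 µg of ovalbumin. On day 4, viable cells positive for CD3e, CD8 and CD45.1 were sorted from spleen, and their polyadenylated RNA was sequenced. The antigen was ERY1-OVA, ovalbumin that binds erythrocytes (3 libraries), TER119-SIINFEKL, the peptide in a form that binds erythrocytes (3 libraries), soluble OVA (3 libraries) or soluble SIINFEKL (2 libraries). Naive cells came from recipients of saline and gave the level in resting cells (3 libraries). All groups therefore share the single transgenic receptor, the transfer and the sort. The labels do not say which libraries came from separate animals, so p-values measure the spread between these libraries, which may be technical.

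Inhibitory receptors hold T cells back by bringing phosphatases and adaptors to the membrane, where these dampen signals from the T cell receptor. BTLA and CD160 both bind HVEM, a member of the tumour necrosis factor receptor family encoded by Tnfrsf14. CD200 is a surface ligand for the receptor CD200R1, which acts through the adaptor DOK2 and the Ras inhibitor RasGAP. CD5 damps antigen receptor signals and its surface level in T cells is known to follow the strength of those signals, while LAIR1 is a receptor for collagen that recruits phosphatases through motifs in its tail.

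Levels are RPKM, which count reads per length of gene and per size of library, and values are listed in order of replicate number. Differences are log2 fold changes, with the group named first over the other, ± the standard error (SE) from limma. A gene is called, and is said to have risen or fallen, where its Benjamini-Hochberg adjusted p over the 9793 genes was under 0.05. Without read counts the depth of each library is unknown, and no counting interval can be given. In bulk RNA of this kind, fewer cells that express a gene and less RNA of it per cell cannot be told apart.

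Promoters from RefSeq (build GRCm38.p6), which cover 250 bases before to 50 bases after the start, matched 5 of the 6 genes; Cd200r1 was not among them. Those of 3 genes are printed on the gene's own strand because their levels carry the main contrasts: Cd200 had the largest differences from Naive, Cd5 is the gene best known as a gauge of receptor signal, and Lair1 moved in opposite directions after the soluble antigens. Capitals mark matches to 4 short motifs searched on both strands, chosen after the sequences and values had been seen: GCGNGGGCG for EGR factors, TGANTCA for AP-1, TGGAAA for NFAT and CAGGAAG for ETS factors.
Cd200, chr16:45409004-45409303, minus strand: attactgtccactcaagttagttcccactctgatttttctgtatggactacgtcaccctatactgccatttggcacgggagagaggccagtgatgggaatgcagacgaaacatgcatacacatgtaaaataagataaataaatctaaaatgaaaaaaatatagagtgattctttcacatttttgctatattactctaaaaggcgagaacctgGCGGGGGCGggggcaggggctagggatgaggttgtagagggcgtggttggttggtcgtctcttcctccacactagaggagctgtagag
Cd5, chr19:10738925-10739224, minus strand: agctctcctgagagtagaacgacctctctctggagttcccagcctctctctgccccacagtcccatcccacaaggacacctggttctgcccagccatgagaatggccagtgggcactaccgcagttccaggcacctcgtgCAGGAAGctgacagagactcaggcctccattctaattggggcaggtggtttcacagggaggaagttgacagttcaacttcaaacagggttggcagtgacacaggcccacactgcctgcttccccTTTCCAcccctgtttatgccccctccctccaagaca
Lair1, chr7:4063155-4063454, minus strand: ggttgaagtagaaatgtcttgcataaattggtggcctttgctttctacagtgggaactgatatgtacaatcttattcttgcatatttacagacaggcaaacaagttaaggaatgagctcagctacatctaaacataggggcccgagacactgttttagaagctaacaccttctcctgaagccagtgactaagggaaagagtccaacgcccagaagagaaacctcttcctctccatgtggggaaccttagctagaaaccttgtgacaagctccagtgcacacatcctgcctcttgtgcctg

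With bases counted from the start of the transcript, the Cd200 promoter held 1 EGR match, at -38, and 5.55% of 32851 mouse promoters of this length held that motif. In the Cd5 promoter the ETS motif (held by 13.3% of promoters) was at -110, and an NFAT match on the opposite strand (21.4% of promoters) lay at 15, just after the start. Lair1 and Btla had no match to the 4 motifs, AP-1 included (7.81% of promoters), and 1 of the 2 Cd160 promoters held an ETS match. These matches describe letters in the window and do not show that a factor binds there.

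The libraries were those of CD8+ T cells: all 6 CD8 T cell markers had values, and their summed level was between 1900 and 3218 RPKM. Of markers of other cells that the sort should remove, 2 of 10 for B cells, 5 of 10 for macrophages and monocytes, 4 of 5 for MHC class II, 2 of 5 for NK cells, 1 of 5 for dendritic cells, 2 of 7 for erythroid cells, 2 of 3 for CD4 and regulatory T cells and 0 of 4 for platelets had values. OVA replicate 1 and TER119-SIINFEKL replicate 1 stood out for some of these markers, and their values are given beside the genes concerned. The 2 SIINFEKL libraries differed from each other more for Cd200, Cd160 and Btla than for most genes. Their gap in log2 RPKM was 2.55 for Cd200, 1.08 for Cd160 and 0.85 for Btla, against a median gap of 0.25 over all genes, and 99.2%, 94.0% and 90.9% of genes had a smaller gap.

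**Figure D1:**
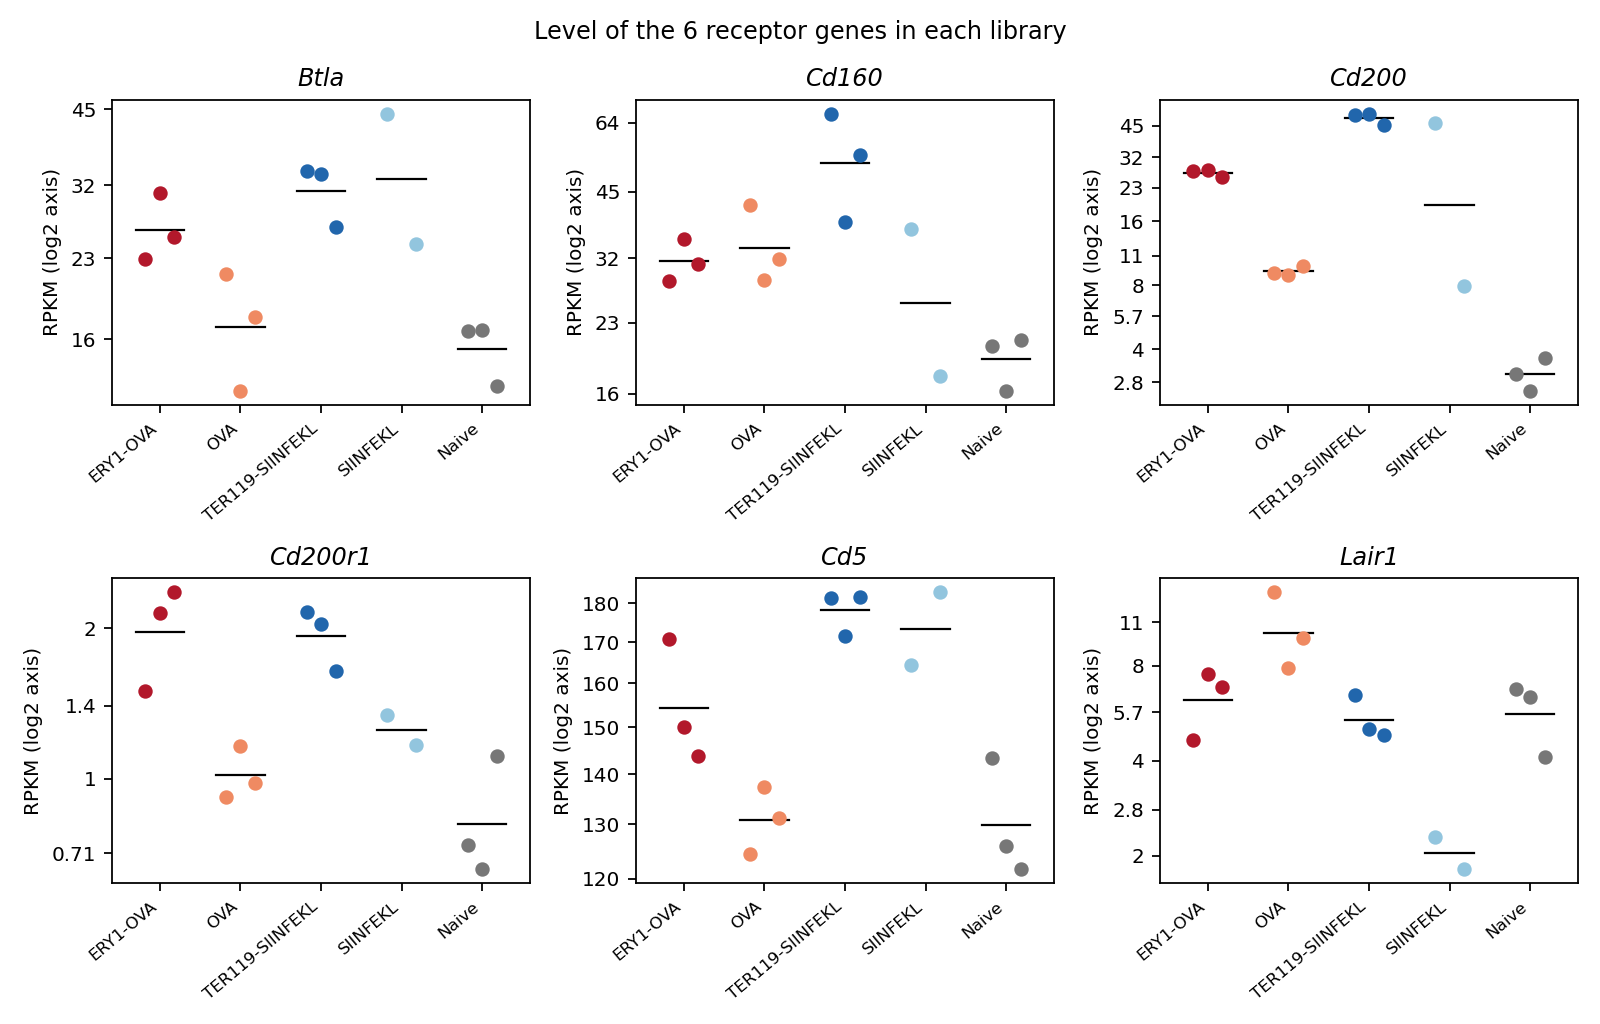
Level of each of the 6 genes in every library, in RPKM on a log2 axis with its own range in each panel, by group; points are libraries and lines are group means of log2 RPKM. Cd200 lies between 45.1 and 51.2 RPKM after TER119-SIINFEKL and between 2.54 and 3.65 RPKM in Naive cells, while Lair1 is highest after OVA and lowest after SIINFEKL.

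Cd200, the ligand of the CD200 pair, was raised after all 4 antigens and had the widest range of the 6 genes. Its levels were 27.6, 28.0 and 25.7 RPKM after ERY1-OVA, 50.5, 51.2 and 45.1 RPKM after TER119-SIINFEKL, 9.13, 8.92 and 9.86 RPKM after OVA, and 46.3 and 7.90 RPKM after SIINFEKL, against 3.06, 2.54 and 3.65 RPKM in Naive cells. No antigen library overlapped the Naive range, and the groups of 3 were tight, with the highest library 1.09 to 1.44 times the lowest, whereas the 2 SIINFEKL libraries differed by 5.85 times. Over Naive, the log2 fold change was 3.15 ± 0.42 after ERY1-OVA (8.87-fold, limma adjusted p = 6.59e-05), 4.00 ± 0.42 after TER119-SIINFEKL (16.0-fold, adjusted p = 6.44e-06), 1.61 ± 0.42 after OVA (3.05-fold, adjusted p = 0.00662) and 2.65 ± 0.47 after SIINFEKL (6.27-fold, adjusted p = 0.00268). Without SIINFEKL replicate 1 the difference after SIINFEKL was 1.37, and it stayed called. In order of level, TER119-SIINFEKL stood above ERY1-OVA without overlap, 1 SIINFEKL library lay within the TER119-SIINFEKL range and the other just below OVA, and OVA stood above Naive. B cells also express Cd200: the 2 measured B cell markers, Cd79b and Cd22, summed to 17.6 to 22.5 RPKM after ERY1-OVA, 23.8 to 27.5 after TER119-SIINFEKL, 15.1 to 21.8 after OVA and 12.8 to 21.5 after SIINFEKL, against 8.49 to 10.3 RPKM in Naive cells. Cd22 was called higher after each antigen and Cd79b after none, and their part in the Cd200 result was not tested.

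Cd200r1, the receptor for CD200, was the lowest of the 6 genes, with a mean of 1.42 RPKM over the 14 libraries and 5.54% of genes below it. It had 1.50, 2.15 and 2.37 RPKM after ERY1-OVA, 2.16, 2.04 and 1.64 RPKM after TER119-SIINFEKL, 0.921, 1.16 and 0.982 RPKM after OVA, and 1.34 and 1.17 RPKM after SIINFEKL, against 0.736, 0.659 and 1.11 RPKM in Naive cells. Both erythrocyte-bound antigens lay above every Naive and every soluble-antigen library, and they overlapped each other. The log2 fold change over Naive was 1.27 ± 0.25 after ERY1-OVA (limma adjusted p = 0.00124) and 1.25 ± 0.25 after TER119-SIINFEKL (adjusted p = 0.00107). After OVA it was 0.32 ± 0.25 (adjusted p = 0.298), with overlapping libraries. After SIINFEKL it was 0.62 ± 0.28 (adjusted p = 0.141), although neither SIINFEKL library overlapped the Naive range. Cd200r1 has close relatives beside it on chromosome 16, and how reads shared between them were counted is not given in the sources used here. At this low level the fold change also depends on the small constant added before the logarithm, if any: with 1 RPKM added it was 0.71 after ERY1-OVA and 0.69 after TER119-SIINFEKL, and both stayed called.

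Btla, one of the pair of HVEM-binding receptors, was raised after ERY1-OVA, TER119-SIINFEKL and SIINFEKL. Its levels were 22.9, 30.8 and 25.3 RPKM after ERY1-OVA, 34.1, 33.7 and 26.5 RPKM after TER119-SIINFEKL, 21.4, 12.7 and 17.7 RPKM after OVA, and 44.2 and 24.6 RPKM after SIINFEKL, against 16.6, 16.6 and 13.0 RPKM in Naive cells. The ERY1-OVA, TER119-SIINFEKL and SIINFEKL libraries all lay above both the Naive and the OVA libraries, and OVA overlapped Naive. Over Naive, the log2 fold change was 0.77 ± 0.23 after ERY1-OVA (limma adjusted p = 0.0151), 1.03 ± 0.23 after TER119-SIINFEKL (adjusted p = 0.00221) and 1.11 ± 0.25 after SIINFEKL (adjusted p = 0.0112). After OVA it was 0.14 ± 0.23 (adjusted p = 0.627, 95% interval -0.34 to 0.63). The call after ERY1-OVA was lost without ERY1-OVA replicate 2 or Naive replicate 3 (0.65 each), and with the values corrected for gene length and GC content it was 0.48 and called. The call after SIINFEKL was lost without SIINFEKL replicate 1, which had the highest Btla level of the 14 libraries (0.68 without it).

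Cd160, the other HVEM-binding receptor and one also made by NK cells, was highest after TER119-SIINFEKL. It had 28.5, 35.4 and 31.0 RPKM after ERY1-OVA, 67.2, 38.6 and 54.4 RPKM after TER119-SIINFEKL, 42.1, 28.7 and 32.0 RPKM after OVA, and 37.1 and 17.5 RPKM after SIINFEKL, against 20.4, 16.2 and 21.1 RPKM in Naive cells. The ERY1-OVA, TER119-SIINFEKL and OVA libraries all lay above Naive, neighbouring antigen groups overlapped, and 1 SIINFEKL library fell within the Naive range. Over Naive, the log2 fold change was 0.72 ± 0.25 after ERY1-OVA (limma adjusted p = 0.0371), 1.45 ± 0.25 after TER119-SIINFEKL (adjusted p = 0.00046) and 0.82 ± 0.25 after OVA (adjusted p = 0.017). After SIINFEKL it was 0.42 ± 0.28 (adjusted p = 0.345), and it was called without SIINFEKL replicate 2 (0.96).

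The calls for Cd160 after the 2 protein antigens were not held by every library. After ERY1-OVA the call was lost without ERY1-OVA replicate 2 or 3 or any of the Naive replicates (0.60 to 0.79) and with a correction for gene length and GC content (0.45). After OVA it was lost without OVA replicate 1 (0.66) or Naive replicate 2 (0.70), and with that correction it was 0.52 and called. The 2 measured NK cell markers summed to 5.01 to 5.64 RPKM after ERY1-OVA, 5.18 to 16.3 after TER119-SIINFEKL, 3.49 to 7.58 after OVA and 4.20 to 4.38 after SIINFEKL, against 8.07 to 9.27 RPKM in Naive cells. The library with the highest Cd160, TER119-SIINFEKL replicate 1, also had the highest level of the NK cell marker Klrb1c, 14.7 RPKM. Without this library the Cd160 difference from Naive was 1.26 and stayed called. Klrb1c was at 0.23 over Naive after TER119-SIINFEKL and Klra8, the other NK cell marker measured, at -1.07, neither called. The part of these markers in the Cd160 difference was not tested. Cd160 shares 68 exon bases with Pdzk1 on the opposite strand, where reads of the genes cannot be told apart if counting ignored strand, and the strand setting is not given in the sources used here.

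Cd5, whose product damps T cell receptor signals, was the most abundant of the 6 genes, with a mean of 152 RPKM and 95.1% of genes below it, and its differences were small. Its levels were 171, 150.0 and 144 RPKM after ERY1-OVA, 181, 172 and 182 RPKM after TER119-SIINFEKL, 125, 137 and 131 RPKM after OVA, and 164 and 183 RPKM after SIINFEKL, against 143, 126 and 122 RPKM in Naive cells. The libraries of both peptide groups lay above every OVA and Naive library, ERY1-OVA also lay above them and overlapped SIINFEKL, and OVA overlapped Naive. Over Naive, Cd5 rose by a log2 fold change of 0.45 ± 0.10 after TER119-SIINFEKL (1.37-fold, limma adjusted p = 0.00254) and 0.42 ± 0.11 after SIINFEKL (adjusted p = 0.0262). After ERY1-OVA the difference was 0.25 ± 0.10 (adjusted p = 0.0666, 95% interval 0.03 to 0.47), and after OVA it was 0.01 ± 0.10 (adjusted p = 0.941, 95% interval -0.21 to 0.23). The TER119-SIINFEKL call was lost with quantile normalization (0.25), and a call after ERY1-OVA was gained without Naive replicate 1 (0.32) or by correcting for gene length and GC content (0.33). Quantile normalization put Cd5 at 0.08 after ERY1-OVA (adjusted p = 0.578) and turned its sign after OVA (-0.25, adjusted p = 0.0663). The SIINFEKL call was lost without SIINFEKL replicate 1 or 2 or Naive replicate 2 or 3 (0.34 to 0.49).

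Lair1, the collagen receptor, differed from the other 5 genes in that it rose after one soluble antigen and fell after the other. It had 4.64, 7.52 and 6.87 RPKM after ERY1-OVA, 6.45, 5.04 and 4.84 RPKM after TER119-SIINFEKL, 13.7, 7.85 and 9.82 RPKM after OVA, and 2.30 and 1.81 RPKM after SIINFEKL, against 6.76, 6.39 and 4.12 RPKM in Naive cells. All OVA libraries were above and both SIINFEKL libraries below every other library, while ERY1-OVA, TER119-SIINFEKL and Naive overlapped. Over Naive, the log2 fold change was 0.86 ± 0.25 after OVA (1.81-fold, limma adjusted p = 0.0122) and -1.46 ± 0.28 after SIINFEKL (adjusted p = 0.00418). It was 0.14 ± 0.25 after ERY1-OVA (adjusted p = 0.672, 95% interval -0.39 to 0.68) and -0.06 ± 0.25 after TER119-SIINFEKL (adjusted p = 0.857, 95% interval -0.59 to 0.48). The OVA call was lost without OVA replicate 1 (0.64) or Naive replicate 3 (0.63). Macrophages also express Lair1: the 5 measured macrophage and monocyte markers summed to 23.7 to 30.9 RPKM after ERY1-OVA, 18.7 to 37.3 after TER119-SIINFEKL, 22.9 to 50.3 after OVA and 22.1 to 23.2 after SIINFEKL, against 19.6 to 38.3 RPKM in Naive cells. OVA replicate 1 had the highest Lair1 and also 11.5 RPKM of Lyz2, a macrophage marker, and 34.4 RPKM of Cd74, an MHC class II gene. Fcer1g was at 7.25 RPKM in that library and 8.66 RPKM in Naive replicate 3, and Tyrobp at 6.98 RPKM in both. Naive replicate 3 had 4.12 RPKM of Lair1, the lowest of the Naive libraries. Over Naive, Cd68, a macrophage marker, was called higher after OVA (0.88, adjusted p = 0.0499). It was also called higher after ERY1-OVA (1.24, adjusted p = 0.0118) and TER119-SIINFEKL (1.26, adjusted p = 0.00904). Of the remaining macrophage and monocyte markers, Lyz2 was at 0.66 after OVA, Tyrobp at 0.14, Itgam at -0.08 and Fcer1g at -0.12, none called. The dendritic cell marker Itgax was called higher after OVA (0.84, adjusted p = 0.0461), with 2.42 to 3.20 RPKM, against 0.797 to 2.36 RPKM in Naive cells. The part of these markers in the OVA result was not tested.

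Counted together, 4 of the 6 genes rose and 0 fell after ERY1-OVA, where 39.9% of all genes tested were called, 20.9% of them as higher and 19% as lower. After TER119-SIINFEKL 5 rose and 0 fell (47.6% of genes called, 24.6% higher and 23% lower), and after OVA 3 rose and 0 fell (47.6% called, 24.4% higher and 23.1% lower). After SIINFEKL 3 rose and 1 fell, where 15.9% of genes were called, 7.58% as higher and 8.34% as lower. The groups did not overlap for 5, 5, 3 and 5 of the 6 genes in these comparisons, against 52.5%, 58%, 59.8% and 46.2% of all genes. The median log2 fold change of the 6 genes was 0.75 after ERY1-OVA, 1.14 after TER119-SIINFEKL, 0.57 after OVA and 0.52 after SIINFEKL, and over all genes it was -0.01, 0.00, -0.04 and -0.01. These 4 comparisons share the Naive libraries, so they are not independent of each other. Cd200 was the one gene of the 6 called higher in all 4.

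**Figure D2:**
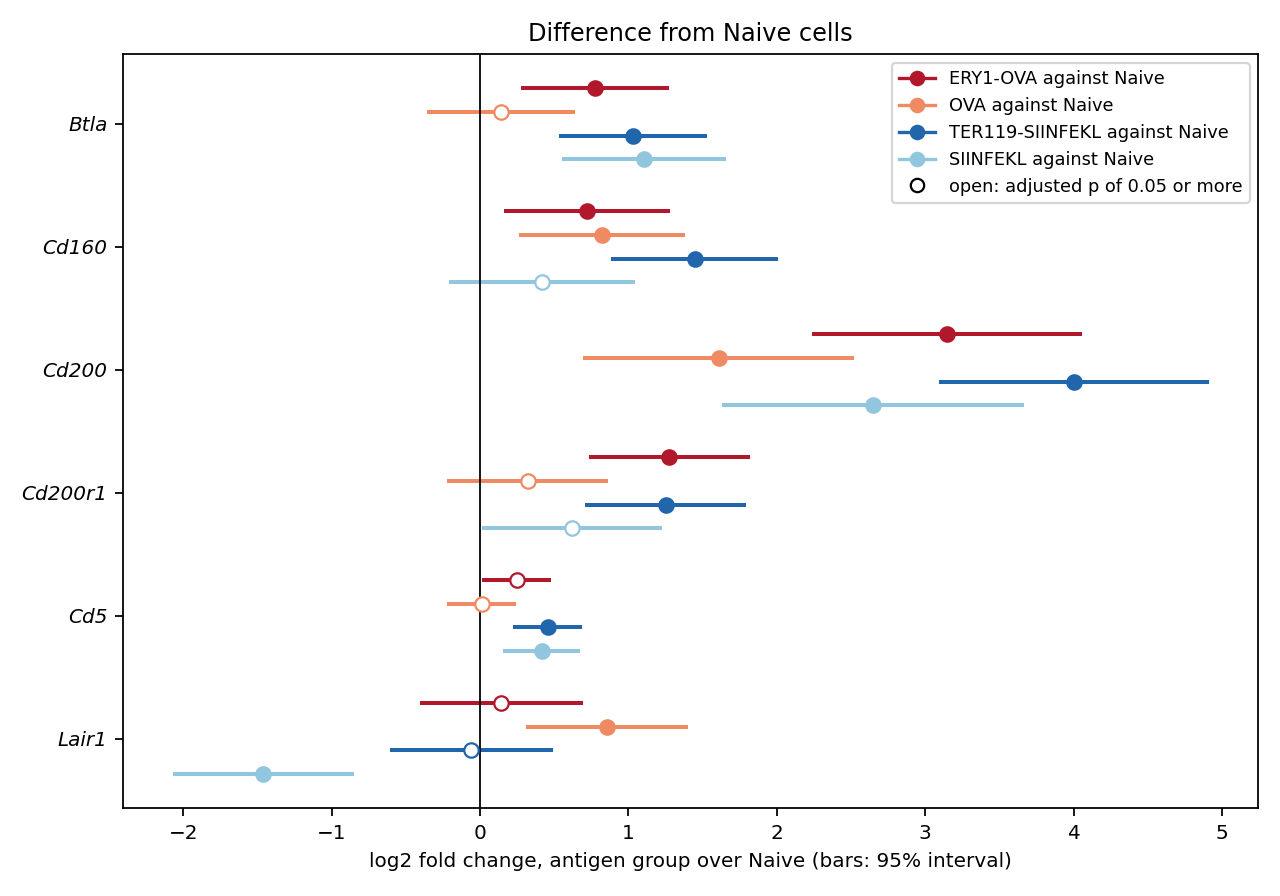
Log2 fold change over Naive (limma) of the 6 genes after each antigen, with bars for the 95% interval; filled points have an adjusted p under 0.05. Cd200 is raised after all 4 antigens, by 1.61 to 4.00, and Lair1 is raised after OVA (0.86) and lowered after SIINFEKL (-1.46).

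Whether binding the protein to erythrocytes alters these receptors was asked by setting ERY1-OVA against OVA. None of the 6 genes was called, in a comparison where 1.06% of all genes were, 0.408% as higher and 0.654% as lower, although 5 of the 6 had an unadjusted p under 0.05 and groups that did not overlap (24.4% of all genes did not overlap). Cd200 had 25.7 to 28.0 RPKM after ERY1-OVA, against 8.92 to 9.86 RPKM after OVA, a log2 fold change of 1.54 ± 0.42 (limma adjusted p = 0.0842, 95% interval 0.65 to 2.44). Its receptor Cd200r1 differed by 0.95 ± 0.25 (adjusted p = 0.077), Btla by 0.63 ± 0.23 (adjusted p = 0.171) and Cd5 by 0.24 ± 0.10 (adjusted p = 0.247), each with all ERY1-OVA libraries above all OVA libraries. Lair1 went the other way, with 4.64 to 7.52 RPKM after ERY1-OVA, against 7.85 to 13.7 RPKM after OVA (-0.71 ± 0.25, adjusted p = 0.16, 95% interval -1.25 to -0.18). Cd160 overlapped between the groups (-0.10 ± 0.25, adjusted p = 0.893, 95% interval -0.65 to 0.45). These calls depended on which groups entered the fit: without the SIINFEKL group in the fit, Cd200 (adjusted p = 0.000142) and Cd200r1 (adjusted p = 0.0471) were called, and with only the ERY1-OVA and OVA libraries, Cd200 alone (adjusted p = 0.000688).

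The same question for the peptide set TER119-SIINFEKL against SIINFEKL, and 3 of the 6 genes rose and 0 fell, with 37.4% of all genes called, 20.4% as higher and 17% as lower. Lair1 had 4.84 to 6.45 RPKM after TER119-SIINFEKL, against 1.81 and 2.30 RPKM after SIINFEKL, a log2 fold change of 1.40 ± 0.28 (2.64-fold, limma adjusted p = 0.00167). Cd160 had 38.6 to 67.2 RPKM after TER119-SIINFEKL, against 17.5 and 37.1 RPKM after SIINFEKL (1.03 ± 0.28, adjusted p = 0.0123). The NK cell marker Klrb1c was called higher as well (1.21, adjusted p = 0.0186), and Klra8, the other one measured, was not (0.42, adjusted p = 0.601). Their part in the Cd160 result was not tested. Without TER119-SIINFEKL replicate 1, the highest library for Cd160 and for Klrb1c, Cd160 differed by 0.85 and stayed called. For both Lair1 and Cd160 the groups did not overlap, as for 3 of the 6 genes in all and 56.4% of all genes. Cd200 was called too (1.35 ± 0.47, adjusted p = 0.0352), but its groups overlapped and the value turned on which SIINFEKL library was used. It was 2.63 without SIINFEKL replicate 1 and 0.08 without replicate 2. Each of these fits leaves 1 SIINFEKL library, whose spread is taken from the other groups. The Cd200 call was lost when any single TER119-SIINFEKL library was left out. The Cd160 difference was 1.57 without SIINFEKL replicate 1, and its call was lost without replicate 2 (0.49). Cd200r1 differed by 0.63 ± 0.28 without overlap (adjusted p = 0.0886), while Btla (-0.08 ± 0.25, 95% interval -0.62 to 0.47) and Cd5 (0.04 ± 0.11, 95% interval -0.21 to 0.28, and -0.22 with quantile normalization) overlapped.

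The difference between erythrocyte-bound and soluble antigen was itself unlike for protein and peptide for Lair1 and Cd160, the 2 genes of 6 called in a test of that difference, in which 37.7% of all genes were called, 17.1% as higher and 20.6% as lower. The protein was bound through ERY1 and the peptide through TER119, so the form of the antigen and the binder cannot be told apart here. For Lair1 the effect on the protein minus the effect on the peptide was -2.12 ± 0.37 in log2 (limma adjusted p = 0.000832, 95% interval -2.92 to -1.31). This combined a value of -0.71 for the protein with 1.40 for the peptide. The difference stayed called in all 19 alternatives run, between -2.30 and -1.70. In the same contrast Itgax, the 1 measured dendritic cell marker, was also called (-1.92, adjusted p = 0.00756). The macrophage marker Lyz2 was at -1.96 (adjusted p = 0.203). The MHC class II genes H2-Eb1 and Cd74 were at -2.14 (adjusted p = 0.0769) and -1.85 (adjusted p = 0.094). Of the other macrophage and monocyte markers, Tyrobp was at -1.24, Fcer1g at -1.15, Cd68 at -0.28 and Itgam at -0.15, none called. For the protein and the peptide in turn, Lyz2 was at -2.59 and -0.63, H2-Eb1 at -1.82 and 0.32, and Cd74 at -1.08 and 0.77. Itgax was negative for the protein and at 0.91 for the peptide. None of these single effects on Lyz2, H2-Eb1, Cd74 or Itgax was called. Without OVA replicate 1 the Lair1 value was -1.90, and the part of these markers in it was not tested. For Cd160 it was -1.13 ± 0.38 (adjusted p = 0.0318), from -0.10 for the protein and 1.03 for the peptide, and it lost its call in 10 of 19 alternatives, at values between -1.13 and -0.59. Among these were the fits without OVA replicate 1 (-0.97), ERY1-OVA replicate 1 or 3 (-1.06 and -1.12), TER119-SIINFEKL replicate 1 or 3 (-0.95 and -1.10) and SIINFEKL replicate 2 (-0.59). For Cd200 the difference was 0.19 ± 0.63 (adjusted p = 0.838, 95% interval -1.16 to 1.53). It was -1.09 without SIINFEKL replicate 1 and 1.46 without replicate 2, so its direction rested on which of these libraries was kept. Btla (0.71 ± 0.34, adjusted p = 0.115), Cd200r1 (0.33 ± 0.37, adjusted p = 0.518) and Cd5 (0.20 ± 0.15, adjusted p = 0.326) were not called.

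**Figure D3:**
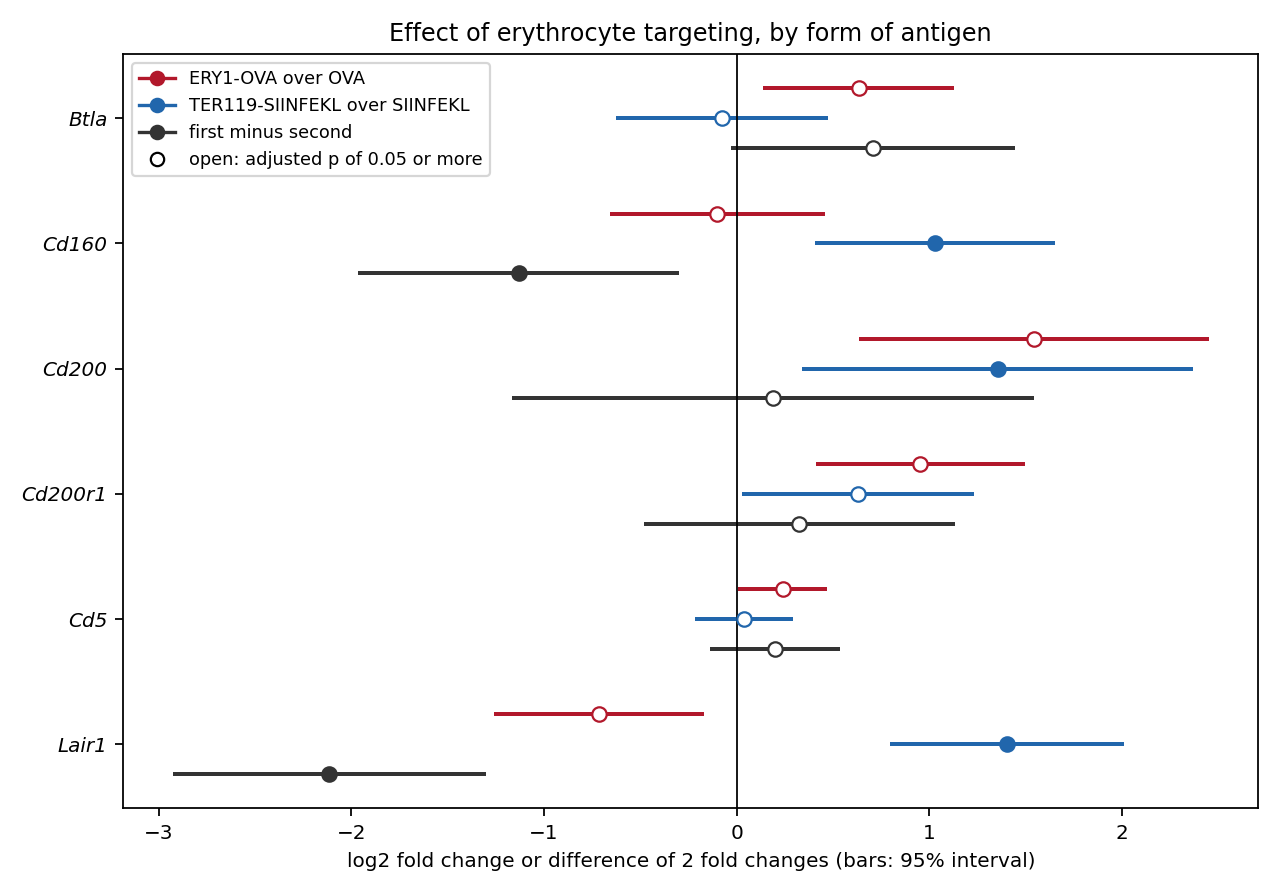
Log2 difference (limma, bars: 95% interval) of the 6 genes for ERY1-OVA over OVA, for TER119-SIINFEKL over SIINFEKL, and for the first effect minus the second; filled points have an adjusted p under 0.05. Lair1 is negative for the protein (-0.71) and positive for the peptide (1.40), and the difference of the effects is -2.12.

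Between the erythrocyte-bound forms, ERY1-OVA against TER119-SIINFEKL, none of the 6 genes was called, where 0.562% of all genes were, 0.0715% as higher and 0.49% as lower, and 1 of the 6 had an unadjusted p under 0.05. Cd160, Cd200 and Cd5 were lower in every ERY1-OVA library than in every TER119-SIINFEKL library, and 16.1% of all genes likewise did not overlap. The log2 fold change was -0.72 ± 0.25 for Cd160 (limma adjusted p = 0.269, 95% interval -1.27 to -0.18), -0.85 ± 0.42 for Cd200 (adjusted p = 0.49, 95% interval -1.75 to 0.04) and -0.21 ± 0.10 for Cd5 (adjusted p = 0.495). Cd200 was called with only these 2 groups in the fit (adjusted p = 0.0262) or without the SIINFEKL group (adjusted p = 0.00509). The others overlapped, at -0.26 ± 0.23 for Btla, 0.02 ± 0.25 for Cd200r1 and 0.20 ± 0.25 for Lair1.

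Between the soluble forms, OVA against SIINFEKL, Lair1 was higher after OVA, and Btla and Cd5 were lower, so that 1 of the 6 genes rose and 2 fell, with 42.2% of all genes called, 22.4% as higher and 19.9% as lower. Lair1 had 7.85 to 13.7 RPKM after OVA, against 1.81 and 2.30 RPKM after SIINFEKL (2.32 ± 0.28, 4.99-fold, limma adjusted p = 3.36e-05). Itgax was called higher in this comparison too (1.49, adjusted p = 0.00505). Of the macrophage and monocyte markers, Lyz2 was at 1.30 (adjusted p = 0.243), Tyrobp at 1.28 (adjusted p = 0.0732) and Fcer1g at 0.95 (adjusted p = 0.333). Itgam was at 0.28 (adjusted p = 0.456) and Cd68 at 0.27 (adjusted p = 0.602). The part of these markers in the Lair1 result was not tested. Btla had 12.7 to 21.4 RPKM after OVA, against 24.6 and 44.2 RPKM after SIINFEKL (-0.96 ± 0.25, adjusted p = 0.00782). Cd5 had 125 to 137 RPKM after OVA, against 164 and 183 RPKM after SIINFEKL (-0.41 ± 0.11, adjusted p = 0.0116). These 3 genes and Cd200r1 (-0.30 ± 0.28, adjusted p = 0.399) did not overlap between the groups, against 61.4% of all genes. The Btla call was lost without SIINFEKL replicate 1 (-0.54) and the Cd5 call without replicate 2 (-0.33; with quantile normalization it was -0.72 and called), while Lair1 kept its call without either. Cd160 (0.41 ± 0.28, adjusted p = 0.266) and Cd200 (-1.04 ± 0.47, adjusted p = 0.0874) were not called; Cd200 was called without SIINFEKL replicate 2 (-2.32) and with values corrected for length and GC content (-1.28), and Cd160 without SIINFEKL replicate 1 (0.95).

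Cd200r1, Btla and Cd200 lie close together on chromosome 16 of GRCm38, with positions from the GENCODE M21 annotation. These are Cd200r1 at chr16:44765736-44794978 on the plus strand, Btla at chr16:45224315-45257670 on the plus strand and Cd200 at chr16:45382135-45409053 on the minus strand. The stretch from the start of Cd200r1 to the end of Cd200 is 643318 bases long and holds 9 annotated protein-coding genes, of which 6 had values. The other 3 measured genes in it were taken for their position, after values had been seen. None of the 3 was called higher over Naive. Cd200r4, another receptor of the CD200R family, fell after TER119-SIINFEKL (-0.66, limma adjusted p = 0.0373) and OVA (-0.79, adjusted p = 0.0163). The OVA call was lost without OVA replicate 2 (-0.68), and no refit is given here for the TER119-SIINFEKL call. Cd200r4 was at -0.32 after ERY1-OVA and -0.45 after SIINFEKL. Its level was low, at 1.06 to 1.42 RPKM after OVA and 1.21 to 1.49 RPKM after TER119-SIINFEKL, against 2.02 to 2.22 RPKM in Naive cells. Slc35a5, a nucleotide sugar transporter family gene, fell after TER119-SIINFEKL (-0.97, adjusted p = 0.014) and OVA (-0.99, adjusted p = 0.0127); it was not refitted with libraries left out. Atg3, an autophagy enzyme that lies next to Btla among the measured genes, was between -0.22 and 0.10 and called after none. The remaining members lie apart, Cd160 at chr3:96798763-96829351, Cd5 at chr19:10717116-10739002 and Lair1 at chr7:4003402-4063204, all on the minus strand.

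**Figure D4:**
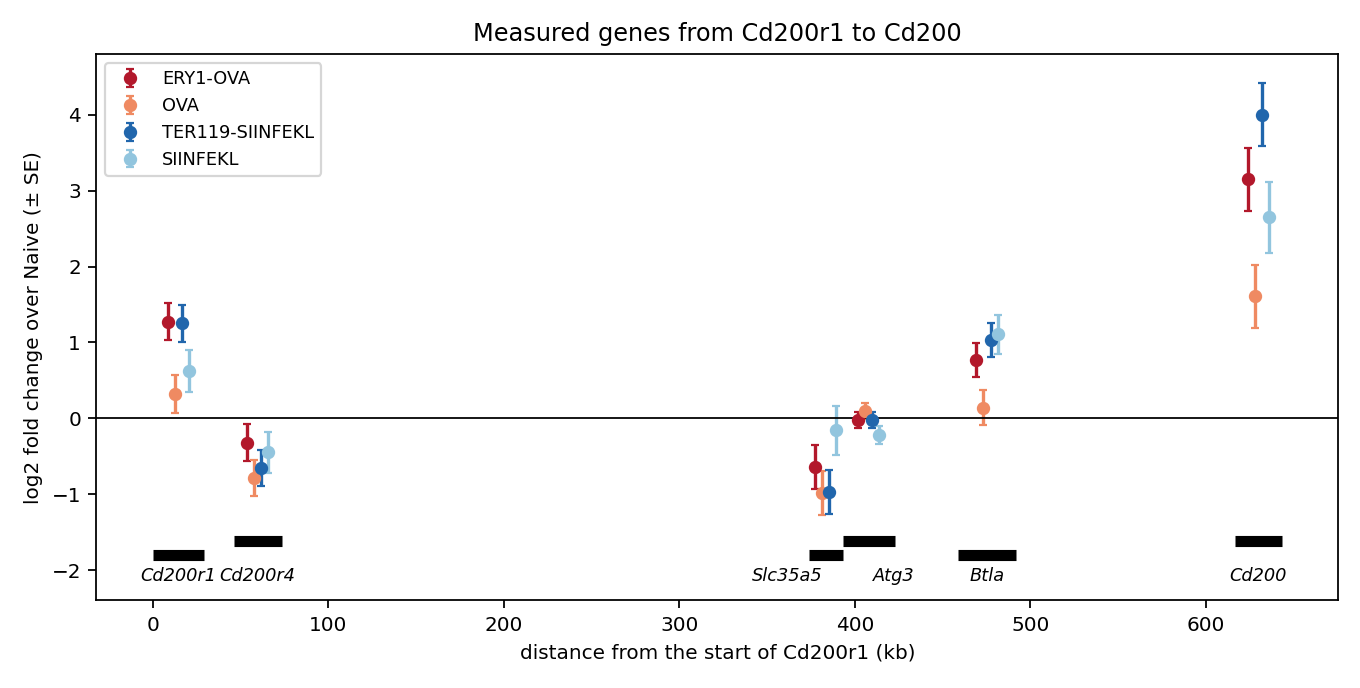
Log2 fold change over Naive (± SE, limma) of the 6 measured genes between Cd200r1 and Cd200, placed by distance from the start of Cd200r1 in kilobases, one point per antigen; black bars show where each gene lies. Cd200r1, Btla and Cd200 stand above 0, and Cd200r4 and Slc35a5 between them stand below it, whether called or not.

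Of 11 partners and relatives of the 6 receptors, 7 had values, and over Naive 2 rose and 1 fell after ERY1-OVA, 2 rose and 3 fell after TER119-SIINFEKL, 1 rose and 4 fell after OVA, and 1 rose and 1 fell after SIINFEKL. Over all genes 39.9%, 47.6%, 47.6% and 15.9% were called in these comparisons. Their median log2 fold change was -0.26, -0.32, -0.61 and -0.03. Tnfsf14 encodes LIGHT, a ligand of HVEM, and had 23.8 to 27.9 RPKM after TER119-SIINFEKL, against 5.78 to 7.95 RPKM in Naive cells (1.94 ± 0.18, limma adjusted p = 3.03e-06). It was also higher after TER119-SIINFEKL than after SIINFEKL, at 7.39 to 11.7 RPKM (1.50 ± 0.21, adjusted p = 0.000138), and lower after ERY1-OVA, at 8.57 to 10.9 RPKM, than after TER119-SIINFEKL (-1.45 ± 0.18, adjusted p = 0.0109). The last call was lost without ERY1-OVA replicate 2 (-1.54) or TER119-SIINFEKL replicate 2 (-1.42) or 3 (-1.52), and the rise of Tnfsf14 after ERY1-OVA over Naive (0.49, adjusted p = 0.0475) was lost with quantile normalization, with the length and GC content correction (0.38) or without any one of 5 of the 6 libraries compared. Tnfrsf14, which encodes HVEM itself, had 11.9 to 13.8 RPKM after OVA, against 19.1 to 23.8 RPKM in Naive cells (-0.76 ± 0.15, adjusted p = 0.00141). It was lower after OVA than after SIINFEKL as well, where it had 21.5 to 32.1 RPKM (-1.03 ± 0.17, adjusted p = 0.000418). Lta, a lymphotoxin that binds HVEM, rose after all 4 antigens, by 0.52 to 0.63 (after OVA, 0.31 and called when corrected for length and GC content), with the SIINFEKL call lost without SIINFEKL replicate 1 (0.46) or Naive replicate 1 (0.45), and Ltb, its membrane partner, fell after ERY1-OVA (-0.64), TER119-SIINFEKL (-0.85) and OVA (-0.61).

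All 15 genes on a list of signalling proteins that act below such receptors had values. Over Naive, 5 rose after ERY1-OVA, 6 after TER119-SIINFEKL, 3 after OVA and 4 after SIINFEKL, and 0 fell, where 39.9%, 47.6%, 47.6% and 15.9% of all genes were called. The median log2 fold changes were 0.11, 0.23, 0.03 and 0.25. Dok2, the adaptor that CD200R1 uses, rose after all 4 antigens, by 0.57 after ERY1-OVA (limma adjusted p = 0.00539), 0.43 after TER119-SIINFEKL (adjusted p = 0.0201, lost with quantile normalization), 0.58 after OVA (adjusted p = 0.00385) and 0.56 after SIINFEKL (adjusted p = 0.0282). Its call after TER119-SIINFEKL was also lost without TER119-SIINFEKL replicate 3 (0.37) or Naive replicate 2 (0.28), and that after SIINFEKL without SIINFEKL replicate 1 (0.38) or Naive replicate 1 (0.58) or 2 (0.41). Rasa1, which encodes RasGAP, rose after ERY1-OVA (0.59, adjusted p = 0.00796), TER119-SIINFEKL (0.48, adjusted p = 0.0189, lost without TER119-SIINFEKL replicate 2 or 3 or Naive replicate 2 at 0.40 to 0.44) and SIINFEKL (1.02 ± 0.17, adjusted p = 0.00181). Csnk2b, the regulatory subunit of casein kinase 2, which binds the tail of CD5, rose after ERY1-OVA (0.52), TER119-SIINFEKL (0.62) and OVA (0.56, and 0.30 with quantile normalization or 0.35 corrected for length and GC content, both called). Ptpn6 and Ptpn11, the SHP phosphatases recruited by BTLA and LAIR1, are named after their values were seen, and were called after none of the antigens. Between ERY1-OVA and OVA 0 of the 15 were called and 4 had an unadjusted p under 0.05, and between ERY1-OVA and TER119-SIINFEKL 0 were called and 1 had one.

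Genes that report the strength of T cell receptor signals were set beside Cd5, whose level is known to follow it, and all 11 on the list had values. Over Naive, 4 rose and 0 fell after ERY1-OVA, 6 and 0 after TER119-SIINFEKL, 2 and 1 after OVA, and 2 and 0 after SIINFEKL, against 39.9%, 47.6%, 47.6% and 15.9% of all genes called. The median log2 fold changes were 0.40, 1.48, -0.25 and 0.10. Egr2, a transcription factor induced by that signal, rose by 0.91 after ERY1-OVA (limma adjusted p = 0.000258), 1.89 after TER119-SIINFEKL (adjusted p = 6.02e-07) and 0.90 after SIINFEKL (adjusted p = 0.00281), and was at -0.32 after OVA, where it was not called. Irf4, another such factor, rose by 3.27 after ERY1-OVA, 3.70 after TER119-SIINFEKL, 2.98 after OVA and 1.98 after SIINFEKL. The gene of this list that fell after OVA was Egr1 (-0.58, limma adjusted p = 0.00986). Tnfrsf9, the costimulatory receptor 4-1BB, rose by 1.56 after ERY1-OVA, 2.95 after TER119-SIINFEKL and 1.13 after OVA. Of this list, Egr2 was the one gene called between ERY1-OVA and OVA (1.23 ± 0.14, adjusted p = 0.00641, lost without ERY1-OVA replicate 1). Between TER119-SIINFEKL and SIINFEKL 5 of the 11 were called, all higher, where 37.4% of all genes were called and 20.4% were higher. There Nr4a3, an orphan nuclear receptor induced by the signal, was 1.90 higher, while Cd5 differed by 0.04.

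**Figure D5:**
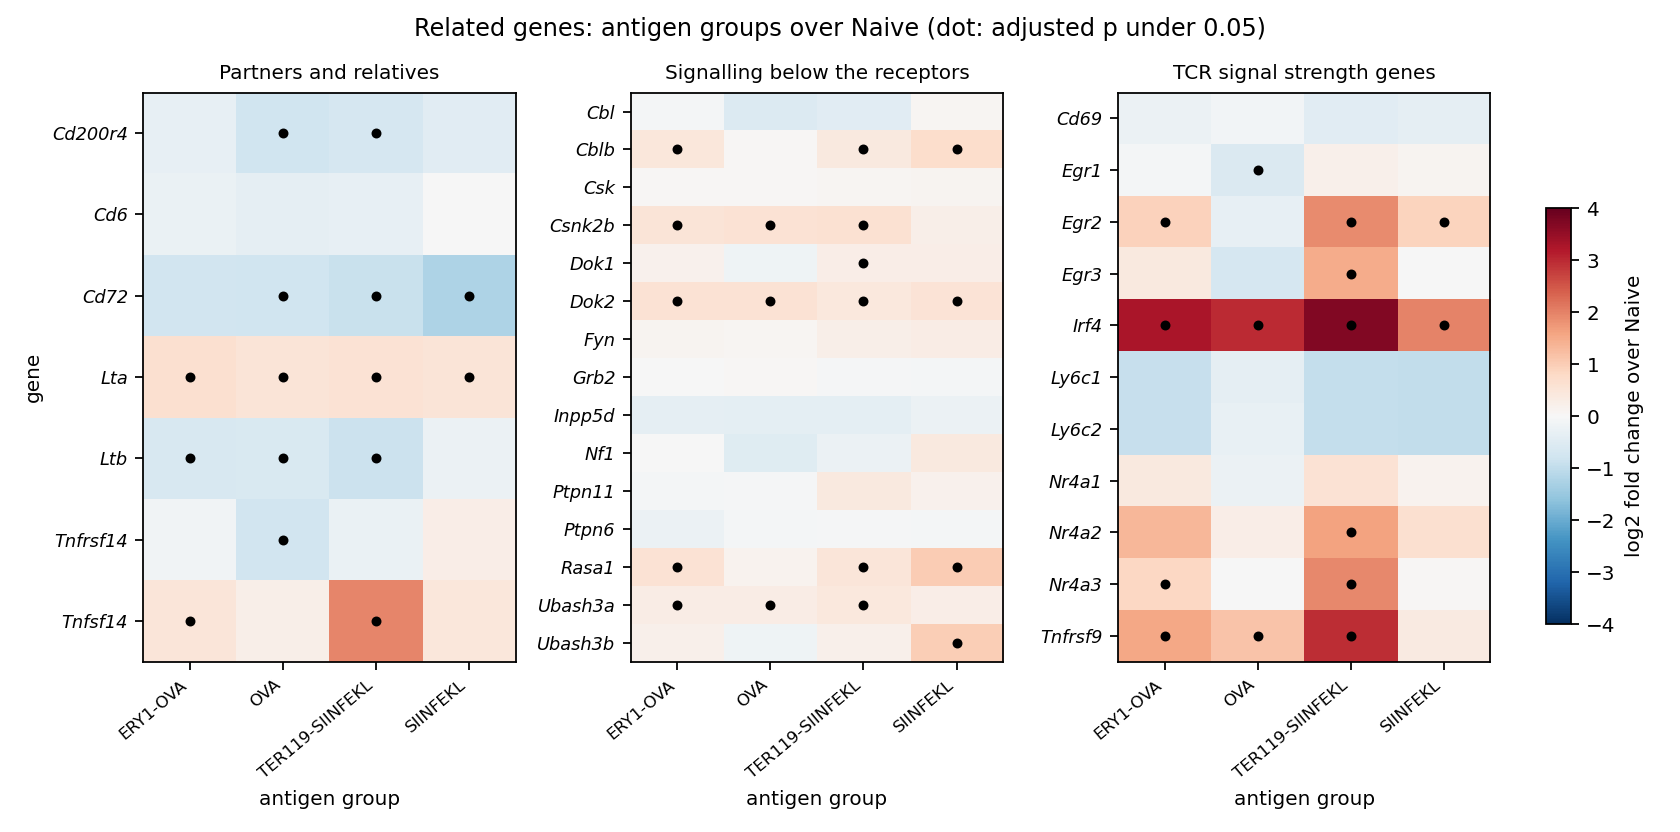
Log2 fold change over Naive of the 3 lists of related genes after each antigen, as coloured cells with a dot where the adjusted p was under 0.05. Irf4 is raised in all 4 columns, by 1.98 to 3.70, and Tnfsf14 stands out after TER119-SIINFEKL, at 1.94.

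Across the 14 libraries, the genes whose log2 RPKM followed each receptor most closely differed from member to member. Cd200 was followed by Decr1 (Pearson r = 0.98), Phactr2 (0.97) and Rilpl2 (0.97), and Btla by Ptger2 (0.95), Tespa1 (0.94) and B3gnt2 (0.94). Genes that followed Cd160 included Tnfrsf9 (0.92) and Pop7 (0.92), and for Cd200r1 they were Ublcp1 (0.89), H2-Oa (0.88) and Crtam (0.87). Cd5 was followed by Synj2, Mcoln3 and Grap (0.90 each), and Lair1 by Mrps25 (0.92), Ndufab1 (0.92) and Ywhaq (0.91). Among the members, r was 0.86 between Cd200 and Cd200r1, 0.83 between Btla and Cd200, 0.81 between Cd160 and Cd200, and 0.70 between Btla and Cd5. Lair1 had r between -0.57 (with Cd5) and 0.27 (with Cd160) with the other members. These values describe points that share libraries, groups and the authors' scaling, and they carry no test.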

How the data were processed

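Polyadenylated RNA of 14 stranded libraries was measured, and the authors deposited log2 RPKM per gene. Per the submitters' processing notes, STAR 2.4.2, bcl2fastq 2.17.1.14 and edgeR were used with GRCm38 or mm10, in an order and role not given. The counter, gene lengths, any constant added and scaling between libraries are not given in the sources used here. Negative values (4.3%) showed a logarithm, and its base was inferred from sums of RPKM times exon length in kilobases. As base 2 these were 1763890 to 2042610 per library, and as base e 22637300 to 37605400. Both lay above the total to which RPKM is scaled, and base 2 was taken because it was the nearer. No 2 libraries held identical values.

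The filter was a mean of 1 RPKM or more (9793 genes passed and 313 did not). Limma 3.58.1 (R 4.3.3) estimated the 5 group means with trended moderation (residual degrees of freedom 9, prior 4.63). Two-sided tests were made for 9 comparisons, with Benjamini-Hochberg adjustment over all genes tested within each, and the procedure was tested on simulated data. The replicate number was not a term, since the labels do not say that a number marks a shared batch. Deviations from group means had a median r of 0.13 between same-numbered libraries (26 pairs, -0.44 to 0.67, 14 over 0.1). Between libraries of other numbers the median r was -0.09 (52 pairs, -0.54 to 0.57, 15 over 0.1). Members, lists and markers were chosen with earlier results of these data known. Named genes were the 6 members, up to 4 called genes per list and comparison with the smallest adjusted p, and the 3 most correlated genes per member, of which 1 is not reported here; others are said to be chosen otherwise. Positions are from GENCODE M21. Alternatives were quantile normalization, 1 RPKM added, other filters on low values, a replicate block, only the groups compared and each library left out. After seeing the data, a length and GC correction, the SIINFEKL group left out, and OVA replicate 1 with TER119-SIINFEKL replicate 1 left out were added. A lone SIINFEKL library is taken to have the spread of the other groups. Figures were drawn with Python 3.11.15 and matplotlib 3.10.9.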

Additional observations from a re-analysis of the deposited data

Results flagged for a closer look

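Lair1 and Cd160 are the members for which the difference between erythrocyte-bound and soluble antigen was unlike for protein and peptide by a test of that difference. The protein was bound through ERY1 and the peptide through TER119, so antigen form and binder cannot be told apart. For Lair1, ERY1-OVA minus OVA less TER119-SIINFEKL minus SIINFEKL was -2.12 on the log2 scale (limma adjusted p = 0.000832). The dendritic cell marker Itgax was called in the same contrast (-1.92, adjusted p = 0.00756). The MHC class II genes H2-Eb1 and Cd74, at -2.14 and -1.85, were not called. Of the macrophage and monocyte markers, Lyz2 was at -1.96, Tyrobp at -1.24, Fcer1g at -1.15, Cd68 at -0.28 and Itgam at -0.15, none called. For the peptide alone, Lair1 was at 1.40, Lyz2 at -0.63 and the other markers named here between 0.15 and 0.91, with no marker called. The part of these markers was not tested. For Cd160 the quantity was -1.13 (limma adjusted p = 0.0318).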

How the results depend on the processing

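Under the alternatives, 704 single-gene values of the members kept their direction and side of the threshold, 24 changed sign with no call in either fit, 45 lost and 15 gained a call, and 1 reversed with a call: the Cd200 difference of targeting effects, at -1.09 without SIINFEKL replicate 1 and 1.46 without replicate 2. With each library left out in turn, members called numbered 2 to 4 for ERY1-OVA, 1 to 3 for OVA and 2 to 4 for SIINFEKL against Naive, 1 to 3 for TER119-SIINFEKL against SIINFEKL, and 1 to 3 for the difference of effects. With only the groups compared, 1 member was called in each of ERY1-OVA against OVA, ERY1-OVA against TER119-SIINFEKL, TER119-SIINFEKL against SIINFEKL and the difference of effects. Without the SIINFEKL group, 2 were called for ERY1-OVA against OVA and 1 against TER119-SIINFEKL. Without both OVA replicate 1 and TER119-SIINFEKL replicate 1, 1 was called for OVA against Naive and 1 for the difference of effects.

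Counts over all genes called for ERY1-OVA against OVA (104) became 66 with quantile normalization, 237 with the length and GC correction, 359 without the SIINFEKL group, 13 without both libraries, and 0 to 15 with 1 library left out. For ERY1-OVA against TER119-SIINFEKL (55) they were 94 with the correction, 163 without the SIINFEKL group, and 0 to 42 with 1 library left out. SIINFEKL against Naive (1559) gave 605 with only those groups and 363 to 2438 with 1 library left out, and TER119-SIINFEKL against SIINFEKL (3664) gave 2131 with only those groups.

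The labels give groups the same replicate numbers but not what a number shares. The replicate block left 69 genes called for ERY1-OVA against OVA and 32 for ERY1-OVA against TER119-SIINFEKL. It changed 1 member call, Cd5 after SIINFEKL (0.39, limma adjusted p = 0.0528). Cd200r1 drops out when a mean of 3 RPKM is required. Depth is unknown, and groups of 2 or 3 libraries limit every comparison. The cause of these changes was not tested.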
